A study of Mus musculus with 6 samples.

Results

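The 10 genes described here, Pecam1, Cdh5, Kdr, Tek, Tie1, Emcn, Plvap, Esam, Cldn5 and Eng, are markers of endothelial cells, and they were picked by name as such for embryonic gut cultures. All 10 were measured, by 12 of the 22690 probe sets on the array, and they make up 10 of the 12393 genes with a single gene name. Cdh5 and Eng had 2 probe sets, of which the one brighter on average stood for the gene, and the other genes had 1. The study set out to learn how the homeodomain factor BARX1 acts in stomach smooth muscle, and it profiled 3 groups of cultured C57BL/6 mouse gut cells with 2 biological replicates each. The Barx1 intestine group came from embryos with both the Bapx1+/Cre and the Rosa26+/Barx1 allele, in which Cre made from the Bapx1 locus turns on a Barx1 transgene at Rosa26. The stomach group and the intestine group came from embryos labelled wild type that carried either Rosa26+/Barx1 or Bapx1+/Cre, without a statement of which allele each sample had. Organs of all groups were taken at embryonic day 13.5, broken up with collagenase-dispase and trypsin to lower the share of endoderm, and grown for 3 days in medium with 20% serum. Bapx1, also called Nkx3-2, is a gene of the gut mesenchyme, and the labels do not say whether Cre acted in endothelial cells.

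Endothelial cells line blood and lymphatic vessels. They hold to each other by VE-cadherin (Cdh5), PECAM1, ESAM and claudin-5, and they grow and survive through receptor tyrosine kinases. The receptors VEGFR1 (Flt1), VEGFR2 (Kdr) and VEGFR3 (Flt4) take up ligands of the VEGF family. TIE2 (Tek), a relative of TIE1, takes up angiopoietins. Endoglin (Eng) is a co-receptor for BMP and TGF-beta ligands, while endomucin (Emcn) and PLVAP are surface proteins of capillary and venous endothelium. Several of these genes are also used outside vessels, such as Pecam1 in platelets and leukocytes, Esam in megakaryocytes, Eng in macrophages and mesenchymal stromal cells, and Kdr in mesodermal progenitors.

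The endothelial markers differed in how bright they were. All values below are log2 expression levels summarised by RMA, and the lower quartile of an array lay at 4.72 to 4.75, a level at which signal was not shown to be above background. Pecam1, Cdh5, Tek and Tie1 stayed under the lower quartile of their array on all 6 arrays. Emcn and Plvap exceeded it on 4 arrays and Cldn5 on 3. Only Kdr, Esam and Eng were above it on all 6, and Eng alone was above the median of every array (6.93 to 6.97). The label of an endothelial population is therefore carried by 3 of the 10 genes, none of which is confined to vessels, and the values are given here as those of Kdr, Esam and Eng with 4 genes that were dim throughout and 3 that were dim on some arrays beside them. RNA came from whole cultures, in which fewer cells of a type and less RNA per cell cannot be told apart.

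**Figure D1:**
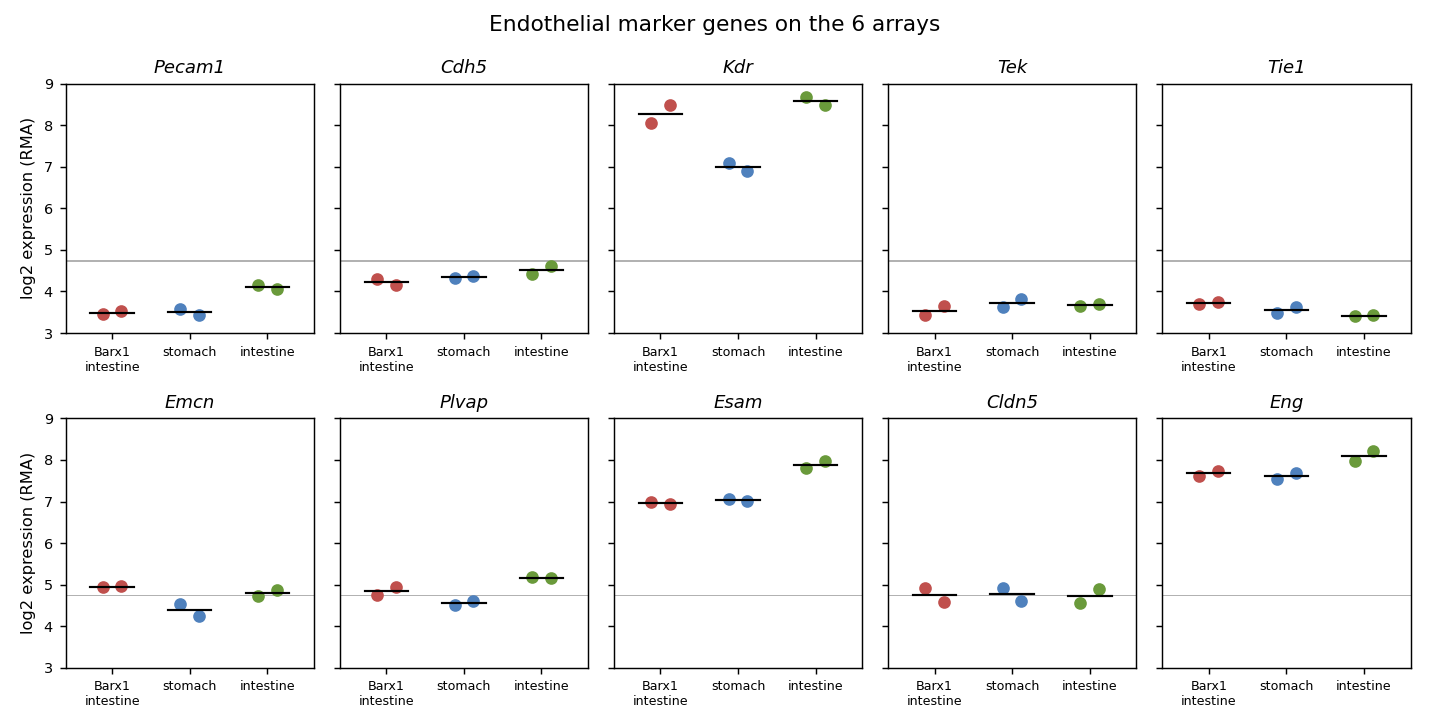
Log2 expression (vertical axis) of the 10 genes in Barx1 intestine, stomach and intestine, with a point for each array, a black line at the mean of 2 arrays and a thin grey band at the lower quartile of the arrays (4.72 to 4.75). Kdr, Esam and Eng lie above the band on every array, and Pecam1, Cdh5, Tek and Tie1 lie under it.

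The reference tables held promoters for 6 of the 10 genes. Shown are the 250 bases before the start site of Kdr, Eng and Emcn, the members with an entry and a difference past the test, as given by RefSeq on build GRCm38.p6, written 5′ to 3′ on the strand of the gene. Capitals mark the letters AGGAAG or CGGAAG on either strand, 2 of the forms that motifs of the ETS factor family take. This family includes many regulators of endothelial genes. The 2 marked words differ in their first letter and cannot lie at the same place on the same strand. The shorter core of these motifs, GGAA, was not searched for and also occurs unmarked in each window shown, that of Kdr included. Kdr is at chr5:75978456-75978705 on the minus strand, Eng at chr2:32646345-32646594 on the plus strand and Emcn at chr3:137340828-137341077 on the plus strand.
Kdr: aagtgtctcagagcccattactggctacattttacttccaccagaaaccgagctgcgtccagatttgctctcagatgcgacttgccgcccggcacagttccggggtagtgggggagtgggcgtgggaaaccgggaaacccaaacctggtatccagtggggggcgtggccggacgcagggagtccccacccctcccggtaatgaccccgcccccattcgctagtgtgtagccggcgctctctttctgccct
Eng: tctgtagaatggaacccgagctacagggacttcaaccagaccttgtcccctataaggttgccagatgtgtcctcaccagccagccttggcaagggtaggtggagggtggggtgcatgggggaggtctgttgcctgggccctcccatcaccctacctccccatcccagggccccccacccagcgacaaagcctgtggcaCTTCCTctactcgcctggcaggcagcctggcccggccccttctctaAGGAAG
Emcn: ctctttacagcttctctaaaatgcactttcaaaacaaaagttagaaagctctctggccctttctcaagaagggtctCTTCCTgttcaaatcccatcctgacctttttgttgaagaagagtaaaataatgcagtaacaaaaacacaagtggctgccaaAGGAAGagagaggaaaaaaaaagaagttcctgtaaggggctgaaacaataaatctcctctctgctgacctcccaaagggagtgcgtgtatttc
Eng and Emcn each had 2 of the marked words and Kdr had 0 in this window. Over all 6 members with an entry 3 held at least 1, the third being Tie1. The share among all 32851 promoter windows was 39.2%.

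Esam, an adhesion molecule of endothelial tight junctions, was the member with the clearest difference on both sides of the design. Its log2 level was 6.98 and 6.94 on the Barx1 intestine arrays, 7.07 and 7.02 on the stomach arrays, and 7.80 and 7.96 on the intestine arrays. The intestine arrays were high, and they overlapped with neither other group. Esam fell by 0.92 in Barx1 intestine relative to intestine (SE 0.07, 0.528 times the intestine level, limma adjusted p = 0.00905). It was lower by a similar amount in stomach than in intestine (difference -0.84, SE 0.07, adjusted p = 0.00426). Between Barx1 intestine and stomach the difference was -0.08, with a 95% interval of -0.27 to 0.10.

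Eng, the BMP and TGF-beta co-receptor, had the same order of groups on both of its probe sets, which differed in size. On the brighter probe set the level was 7.62 and 7.74 in Barx1 intestine, 7.55 and 7.69 in stomach, and 7.97 and 8.22 in intestine. The stomach was lower than intestine (difference -0.48, SE 0.11, adjusted p = 0.0374), and the difference of Barx1 intestine from intestine was -0.41 (SE 0.11, adjusted p = 0.0975). The other probe set read 7.03 and 6.99 in Barx1 intestine, 6.98 and 6.89 in stomach, and 8.06 and 8.31 in intestine. Here the intestine arrays stood further apart from the rest: the differences were -1.17 for Barx1 intestine (adjusted p = 0.00917 over all probe sets) and -1.25 for stomach (adjusted p = 0.00304). With the mean of both probe sets as the level of Eng, the difference of Barx1 intestine from intestine was -0.79 and past the test (adjusted p = 0.0215), so whether Eng counts as lower with Barx1 depends on the probe set.

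Kdr, the main signalling receptor for VEGF-A, was low in stomach only. Its level was 8.05 and 8.49 in Barx1 intestine, 7.09 and 6.89 in stomach, and 8.68 and 8.48 in intestine. The stomach arrays lay below all others, while the Barx1 intestine and intestine arrays overlapped. Kdr was lower in stomach than in intestine (difference -1.595, SE 0.16, 0.331 times the intestine level, adjusted p = 0.00514). It was higher in Barx1 intestine than in stomach (difference 1.28, SE 0.16, 2.44-fold, adjusted p = 0.0218). From intestine, Barx1 intestine differed by -0.31, with an interval of -0.72 to 0.10 (adjusted p = 0.321), so a fall of up to that size is not excluded.

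Pecam1 and Plvap were highest in the intestine group, at dim levels. Pecam1 read 3.45 and 3.53 in Barx1 intestine, 3.58 and 3.43 in stomach, and 4.14 and 4.05 in intestine, all under the lower quartile. Both differences from intestine passed the test (-0.61 in Barx1 intestine, adjusted p = 0.0239, and -0.59 in stomach, adjusted p = 0.00961), but no fold is read from a gene that was not shown to be above background in either group. Plvap, a protein of the diaphragms of fenestrated endothelium, read 4.74 and 4.96 in Barx1 intestine, 4.50 and 4.60 in stomach, and 5.18 and 5.16 in intestine. Its arrays kept the order stomach, Barx1 intestine, intestine without overlap. The stomach was lower than intestine (difference -0.62, SE 0.09, adjusted p = 0.0120), with stomach arrays under the lower quartile, and the difference of Barx1 intestine from intestine did not pass (-0.32, adjusted p = 0.107).

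Emcn, a sialomucin of venous and capillary endothelium, had its lowest arrays in stomach, as Kdr did. It read 4.94 and 4.96 in Barx1 intestine, 4.53 and 4.25 in stomach, and 4.74 and 4.87 in intestine. The excess of Barx1 intestine over stomach passed the test (difference 0.56, SE 0.11, adjusted p = 0.0484), and the difference of stomach from intestine did not (-0.41, adjusted p = 0.0533). Both stomach arrays were under the lower quartile, so these sizes are not read as folds.

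The remaining 4 genes gave no difference past the test in any comparison. Cdh5, the adhesion molecule of endothelial adherens junctions, ranged from 4.16 to 4.29 in Barx1 intestine, from 4.33 to 4.36 in stomach and from 4.42 to 4.60 in intestine (adjusted p from 0.129 to 0.458). Its other probe set lay lower still, between 3.35 and 3.61. Tie1 had its higher arrays in Barx1 intestine (3.70 and 3.75), against 3.40 and 3.44 in intestine, opposite to Pecam1 and Esam (difference 0.31, adjusted p = 0.0838). Tek, the angiopoietin receptor, lay between 3.43 and 3.82, and Cldn5 between 4.55 and 4.93, with overlapping arrays in all 3 comparisons. For Cldn5 the intervals reached from -0.48 to 0.50, so differences of about that size would not be seen with these arrays.

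**Figure D2:**
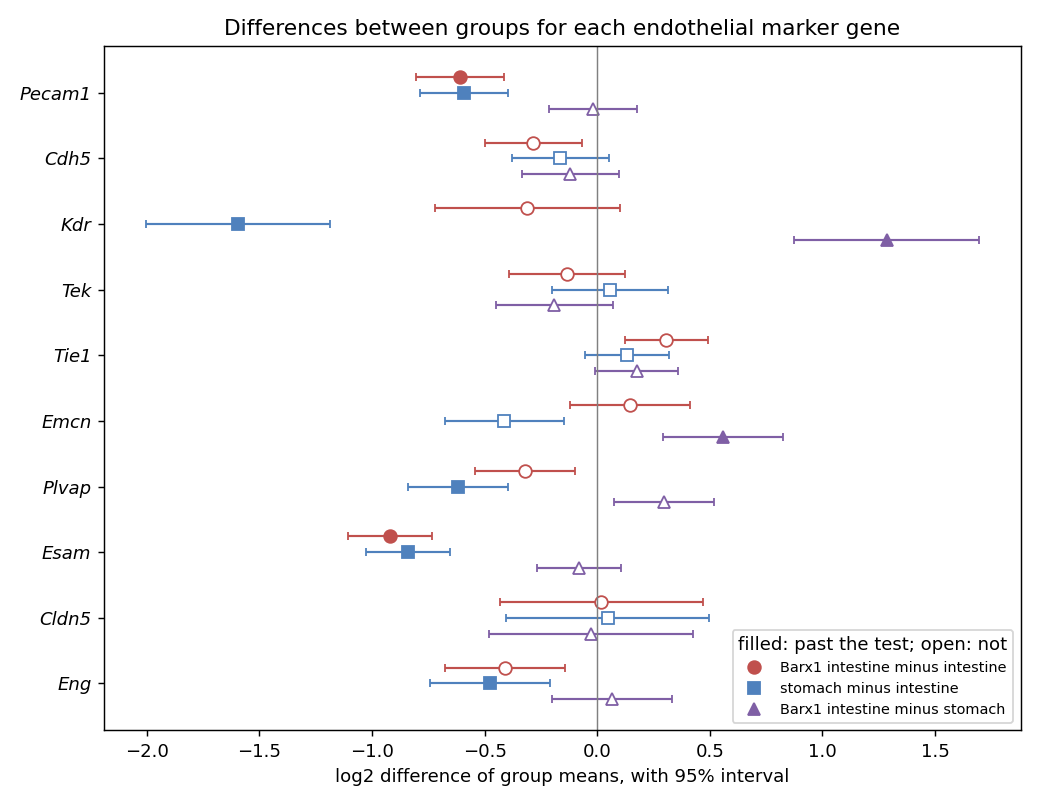
Log2 differences of group means (horizontal axis) for each gene in the 3 comparisons, with 95% intervals of the limma fit as bars; filled symbols passed at an adjusted p under 0.05 and open ones did not. Esam and Pecam1 lie left of 0 for both comparisons with intestine, while Kdr lies at -1.595 for stomach and at -0.31 for Barx1 intestine.

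In the comparison of Barx1 intestine with intestine, which asks what ectopic BARX1 changes in intestinal cells, 2 of the 10 genes fell (Esam and Pecam1) and 0 rose, against 2.12% of all genes called lower and 1.86% higher. The median difference was -0.30, against 0.02 over all genes. The arrays did not overlap for 7 of the 10, where 52.4% of all genes did not. Leaving out 1 array at a time left 1 call without either stomach or either intestine array, namely Esam, and 0 without either Barx1 intestine array, where the adjusted p of Esam was 0.0653 without replicate 1 and 0.0533 without replicate 2. Over the 15 alternatives its adjusted p ran from 0.00441 to 0.0653. Pecam1 lost its call in all 6 of these fits (adjusted p from 0.0569 to 0.132), and its adjusted p over 14 alternatives ran from 0.0153 to 0.132.

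Between stomach and intestine, 5 genes were lower (Pecam1, Kdr, Plvap, Esam and Eng) and 0 higher, against 8.09% of all genes called lower and 8.86% higher. The median difference was -0.44, against 0.02 over all genes, and the arrays did not overlap for 8 of the 10, against 64.1% of all genes. Esam stayed past the test in all 6 fits without 1 array. The count was 3 without stomach replicate 1, 1 without stomach replicate 2, and 4 without intestine replicate 2 or without either Barx1 intestine array. Kdr and Pecam1 lost their call without stomach replicate 2 alone (adjusted p = 0.0508 and 0.0713), Plvap without either stomach array, and Eng in 5 of the 6 fits. Over all alternatives the adjusted p ran from 0.00142 to 0.0508 for Kdr, from 0.00641 to 0.0713 for Pecam1, from 0.00913 to 0.0832 for Plvap and from 0.00534 to 0.181 for Eng.

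Between Barx1 intestine and stomach, 2 genes were higher (Kdr and Emcn) and 0 lower, against 2.56% and 2.64% of all genes, and the arrays of 6 genes did not overlap, against 58% of all genes. The median difference was 0.02, against -0.0008 over all genes. Without either stomach array or either Barx1 intestine array 0 genes passed, and without either intestine array 1 did, Kdr. The adjusted p of Kdr ran from 0.00727 to 0.158 over the alternatives, and that of Emcn from 0.0352 to 0.209. The comparisons share arrays in pairs, so their results are given side by side and not as support for each other.

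The VEGF ligands and receptors were mostly well above the lower quartile, and their directions differed from gene to gene. Vegfa, the main ligand of KDR, read 8.77 and 8.75 in Barx1 intestine, 8.94 and 8.98 in stomach, and 8.43 and 8.59 in intestine. It was higher in stomach than in intestine (difference 0.45, SE 0.07, adjusted p = 0.0158), where Kdr was lower, and its difference in Barx1 intestine was 0.25 (adjusted p = 0.124). Flt1, the receptor that binds VEGF-A with high affinity and little signalling, was also higher in stomach (difference 0.71, adjusted p = 0.0174), as was the co-receptor gene Nrp1 (0.53, adjusted p = 0.0201). The ligand gene Vegfb was higher in stomach than in intestine (0.42, adjusted p = 0.0261). In Barx1 intestine it was lower than in stomach (-0.47, adjusted p = 0.0412). Vegfc, a ligand of VEGFR3 in lymphatic growth, read 7.25 and 7.19 in Barx1 intestine, 7.68 and 7.49 in stomach, and 8.104 and 8.004 in intestine. Its 3 groups did not overlap, and both differences from intestine passed (-0.83 in Barx1 intestine, adjusted p = 0.0163, and -0.47 in stomach, adjusted p = 0.0212). Nrp2, a co-receptor for VEGF-C, was also highest in intestine: 8.25 and 8.31 in Barx1 intestine, 8.33 and 8.21 in stomach, and 8.88 and 9.13 in intestine, with differences from intestine of -0.72 (adjusted p = 0.0273) and -0.74 (adjusted p = 0.00988). Vegfd, the other VEGFR3 ligand, was higher in stomach, at 6.30 and 6.57, against 3.70 and 4.13 in intestine (difference 2.52, adjusted p = 0.00584), where it was under the lower quartile. In Barx1 intestine it read 3.99 and 4.72. Flt4 itself gave no difference past the test (adjusted p from 0.0605 to 0.470), nor did Angpt1, which was under the lower quartile throughout, or Angpt2 (adjusted p from 0.169 to 0.461).

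**Figure D3:**
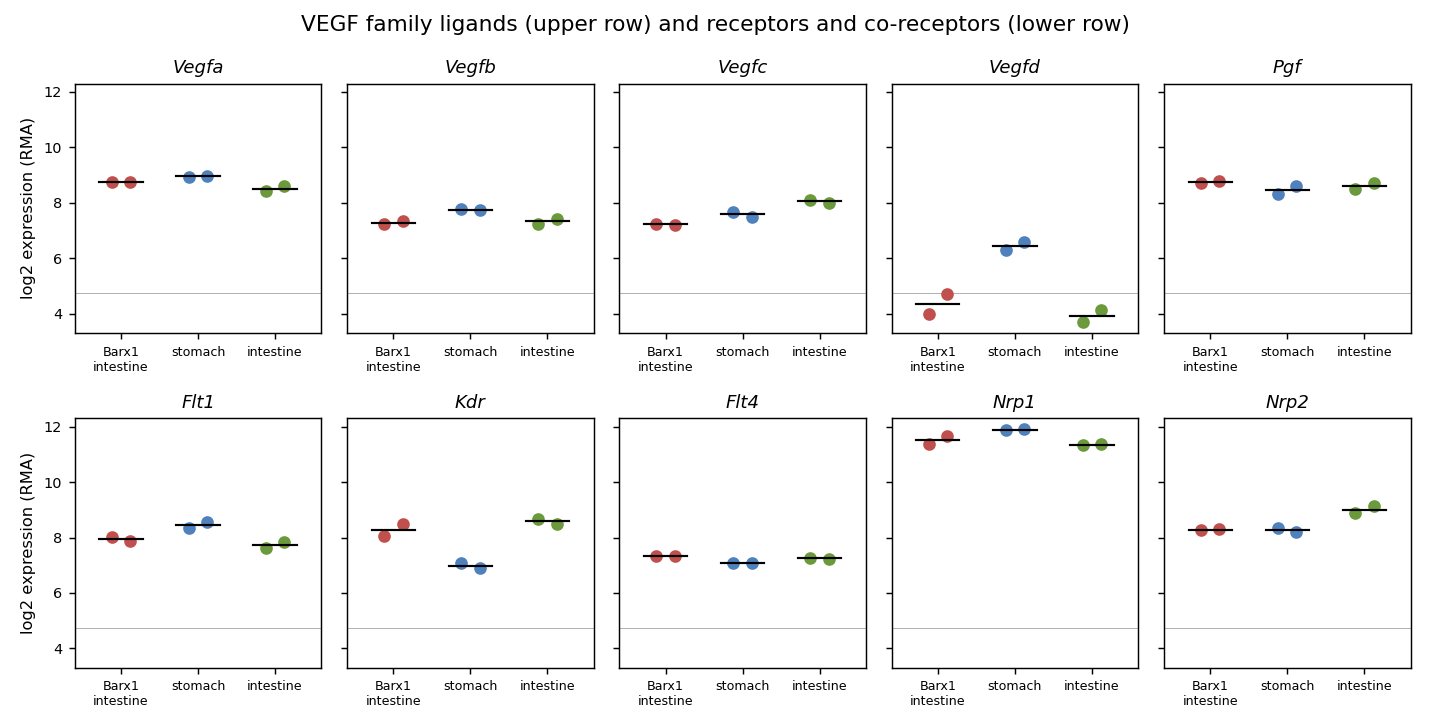
Log2 expression (vertical axis) of VEGF ligand genes in the upper row and of receptor and co-receptor genes in the lower row, with a point for each array, a line at the mean of 2 arrays and a thin band at the lower quartile of the arrays. Vegfa, Vegfb, Vegfd, Flt1 and Nrp1 are highest in stomach, where Kdr is lowest, and Vegfc and Nrp2 are highest in intestine.

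Ligands and other signals for endothelium, as a list of 19 measured genes, had 2 higher and 1 lower in Barx1 intestine than in intestine, 6 higher and 4 lower in stomach than in intestine, and 2 higher and 4 lower in Barx1 intestine than in stomach. For this list and those below, the shares over all genes were, in that order, 1.86% higher and 2.12% lower, 8.86% and 8.09%, and 2.56% and 2.64%. No list was tested as a set. Esm1, a secreted proteoglycan gene of sprouting endothelium, read 7.61 and 7.67 in Barx1 intestine, 8.20 and 8.35 in stomach, and 5.54 and 5.72 in intestine. It rose by 2.01 in Barx1 intestine relative to intestine (SE 0.09, 4.04-fold, adjusted p = 0.00176), opposite in direction to Esam and Pecam1, and was higher in stomach by 2.65 (adjusted p = 0.000418). Sema3a, a ligand of neuropilin 1, was higher in Barx1 intestine than in intestine (0.86, adjusted p = 0.00610) and than in stomach (0.62, adjusted p = 0.0141). Edn1, which encodes endothelin 1, was lower in stomach than in intestine (-0.95, adjusted p = 0.00780).

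Other receptors and signalling genes of endothelium numbered 24, with 2 higher and 3 lower in Barx1 intestine than in intestine, 5 and 5 in stomach against intestine, and 3 and 0 in Barx1 intestine against stomach. The 5 higher in stomach included Flt1, Nrp1, Fzd4 (0.69, adjusted p = 0.00689) and Cav1 (0.42, adjusted p = 0.0123). Ednrb was lower than in intestine both in Barx1 intestine (-3.17, adjusted p = 0.0204) and in stomach (-2.40, adjusted p = 0.0133). It is counted again below among genes of enteric neurons and glia. Ptprb, a phosphatase that acts on TIE2 and VE-cadherin, had low stomach arrays like Kdr: 8.52 and 8.54 in Barx1 intestine, 7.07 and 7.11 in stomach, and 8.87 and 8.92 in intestine. All 3 comparisons passed for it, with -0.36 in Barx1 intestine relative to intestine (adjusted p = 0.0374), -1.80 in stomach relative to intestine (adjusted p = 0.000378) and 1.44 in Barx1 intestine relative to stomach (adjusted p = 0.00325). Acvrl1, the BMP receptor that pairs with endoglin, followed the same order, with -1.54 in stomach relative to intestine (adjusted p = 0.0134), 1.34 in Barx1 intestine relative to stomach (adjusted p = 0.0412) and an uncalled -0.20 in Barx1 intestine relative to intestine. Among 23 further surface and junction genes, 2 were higher and 1 lower in Barx1 intestine than in intestine, 4 and 2 in stomach against intestine, and 2 and 1 in Barx1 intestine against stomach. Procr, the protein C receptor gene, and Cd34, a sialomucin gene of progenitors and endothelium, were lower in stomach than in intestine (-1.02 and -0.84, adjusted p = 0.00815 and 0.0430) and higher in Barx1 intestine than in stomach (0.88 and 1.62, adjusted p = 0.0267 and 0.0202). Sele, the E-selectin gene, rose in Barx1 intestine relative to intestine (0.95, adjusted p = 0.0163). It was among the 4 higher in stomach than in intestine (0.82, adjusted p = 0.00748). The others were Vcam1 (1.07, adjusted p = 0.0161), Jam2 (0.80, adjusted p = 0.0320) and Gja1 (0.28, adjusted p = 0.0491). Of these 23 genes 16 lay above the lower quartile on all 6 arrays and 5 under it, among them Vwf, Icam2 and Clec14a, genes with much of their use in endothelium. Nos3 averaged 4.92, 4.82 and 5.07 in Barx1 intestine, stomach and intestine. Ramp2, Calcrl and Egfl7, genes of adrenomedullin signalling and vessel growth, gave no difference past the test in any comparison. Adm, the adrenomedullin gene in the list of ligands, was lower in stomach than in intestine (-1.35, adjusted p = 0.0172). It was higher in Barx1 intestine than in stomach (1.28, adjusted p = 0.0414).

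**Figure D4:**
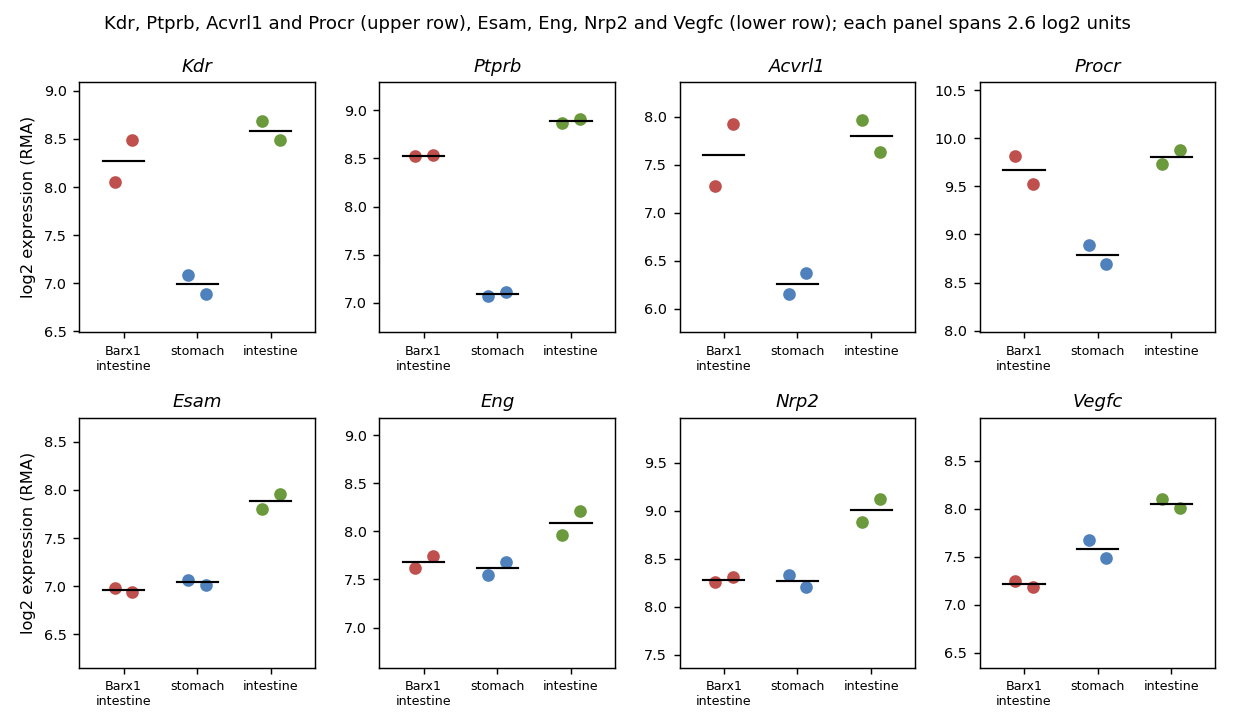
Log2 expression (vertical axis, each panel spanning the same number of log2 units around its own centre) of Kdr, Ptprb, Acvrl1 and Procr in the upper row and of Esam, Eng, Nrp2 and Vegfc in the lower row, with a point for each array and a line at the mean of 2 arrays. In the upper row the stomach arrays lie below the others, and in the lower row the intestine arrays lie above the others; these genes were placed together after their values were seen.

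Of 25 endothelial transcription factors, 0 were higher and 2 lower in Barx1 intestine than in intestine, 3 and 3 in stomach against intestine, and 1 and 2 in Barx1 intestine against stomach. Over all genes the shares were 1.86% and 2.12%, 8.86% and 8.09%, and 2.56% and 2.64%. Erg, an ETS factor that maintains endothelial identity, averaged 5.007, 5.012 and 4.998 in Barx1 intestine, stomach and intestine, and of the 25 genes 21 were above the lower quartile on all arrays and 3 under it (Sox7, Tal1 and Bcl6b). Sox17, Sox18, Fli1 and Lmo2 gave no difference past the test, though Lmo2, which blood cells also use, averaged 5.83, 7.14 and 7.89 in Barx1 intestine, stomach and intestine (adjusted p = 0.0514 for Barx1 intestine against intestine). Ets1, which mesenchyme also expresses, was lower in stomach than in intestine (-0.52, adjusted p = 0.00819) and higher in Barx1 intestine than in stomach (0.36, adjusted p = 0.0417). Hhex, a homeobox gene of early endothelium and endoderm, fell in Barx1 intestine relative to intestine (-1.30, adjusted p = 0.00872) and was lower in stomach (-0.92, adjusted p = 0.00651). Among 14 arterial, venous and lymphatic genes 0 passed by limma in Barx1 intestine against intestine (5 at an unadjusted p under 0.05), 1 was higher and 4 lower in stomach against intestine, and 1 was lower in Barx1 intestine against stomach. Nr2f2, a regulator of venous identity that gut mesenchyme also uses, read 9.31 and 9.33 in Barx1 intestine, 10.27 and 10.21 in stomach, and 9.28 and 9.32 in intestine. It was higher in stomach than in intestine (0.94, adjusted p = 0.00194) and lower in Barx1 intestine than in stomach (-0.92, adjusted p = 0.00832). Nr2f2 is counted in this list and among the transcription factors. The 4 lower in stomach were the Notch ligand genes Dll1 (-1.03, adjusted p = 0.00753) and Jag1 (-0.67, adjusted p = 0.0185), Pdpn, a surface protein gene of lymphatic endothelium and other cells (-0.47, adjusted p = 0.0241), and Notch4, a Notch receptor gene of arterial endothelium (adjusted p = 0.0299), for which no size is read because its stomach arrays were under the lower quartile. Dll4, Efnb2 and Ephb4, further genes of arterial and venous identity, passed in no comparison. Prox1, the regulator of lymphatic identity, was under the lower quartile throughout, and Lyve1 read 4.37 and 5.77 on the intestine arrays. The second of these arrays also had the highest leukocyte level, and a link between Lyve1 and leukocytes was not tested.

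Leukocyte markers were lower in Barx1 intestine than in intestine for 8 of 18 genes, against 2.12% of all genes. The 18 genes had a mean log2 level of 6.87 and 7.69 on the Barx1 intestine arrays, 8.14 and 7.85 on the stomach arrays, and 8.51 and 9.39 on the intestine arrays. In Barx1 intestine relative to intestine 8 fell, 0 rose and 10 did not pass, with a median of -1.83. In stomach relative to intestine 1 of 18 was lower, with a median of -0.9975, and between Barx1 intestine and stomach 0 passed by limma (6 at an unadjusted p under 0.05), with a median of -0.83. Between the replicates of the intestine the list differed by 0.88 (replicate 2 minus replicate 1), while Esam differed by 0.17, Eng by 0.25, Pecam1 by -0.09 and Kdr by -0.20. Between the Barx1 intestine replicates it differed by 0.82, with 0.44 for Kdr and -0.04 for Esam. Epithelial markers, 14 genes, averaged 7.87 and 7.21 in Barx1 intestine, 6.82 and 7.52 in stomach, and 8.85 and 7.85 in intestine, with 1 lower in Barx1 intestine than in intestine and 2 lower in stomach than in intestine. The part of leukocytes and epithelium in the differences of Esam, Pecam1, Eng and Kdr was not tested.

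**Figure D5:**
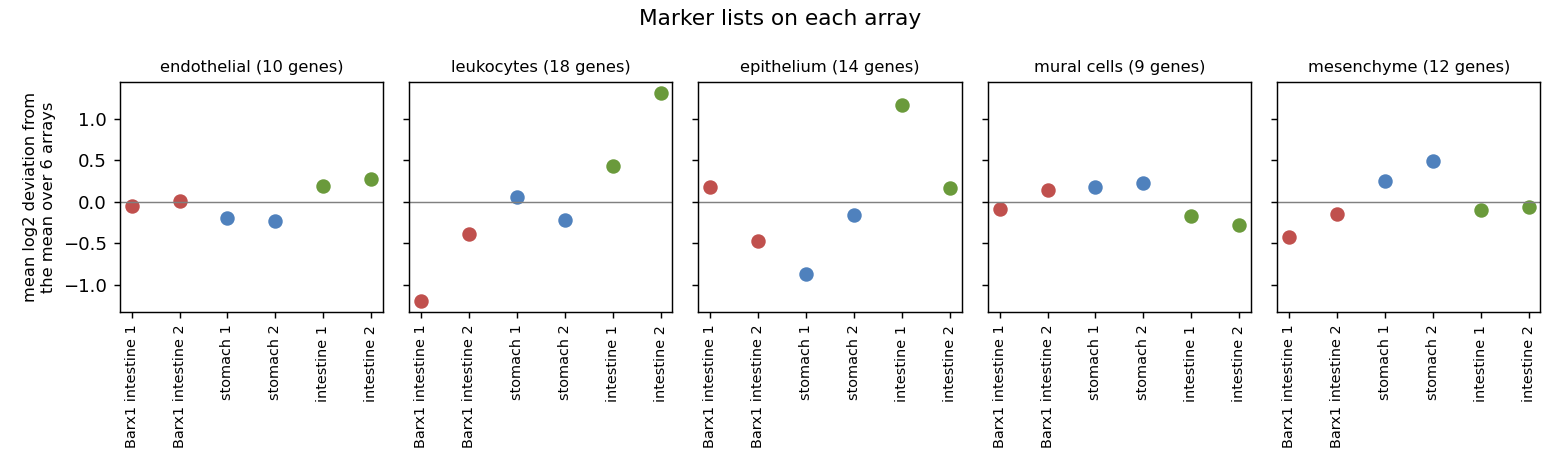
Mean log2 deviation of each marker list from its own mean over the 6 arrays (vertical axis), with a point for each array coloured by group. The endothelial genes lie between -0.23 and 0.28, highest on the intestine arrays, where the leukocyte list is highest too (0.43 and 1.31).

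Mural cells, which wrap vessels, were read by 9 genes with mean levels of 7.70 and 7.93 in Barx1 intestine, 7.97 and 8.02 in stomach, and 7.62 and 7.51 in intestine. Rgs5, a regulator of G protein signalling that marks pericytes, rose in Barx1 intestine relative to intestine (2.07, SE 0.31, adjusted p = 0.0338). Its intestine arrays lay apart, at 10.79 and 9.80. The potassium channel gene Kcnj8 rose as well (1.18, adjusted p = 0.0260). Pdgfrb (-0.30, adjusted p = 0.229) and the desmin gene Des (-0.75, adjusted p = 0.0505) did not pass. In this comparison 5 of the 9 genes lay above 0 and 4 below, with a median of 0.07. Cspg4, the NG2 proteoglycan gene, was higher in stomach than in intestine (1.09, adjusted p = 0.00628). In stomach relative to intestine 2 of the 9 were higher and 0 lower, and in Barx1 intestine relative to stomach 0 were higher and 2 lower. Both Rgs5 and Kcnj8 are also used by smooth muscle cells. Erythroid genes had 0 of 8 past the test by limma in any comparison (at most 3 at an unadjusted p under 0.05), and 4 of them were under the lower quartile on all arrays. Platelet and megakaryocyte genes had 1 of 6 lower in stomach than in intestine and 0 called in the other comparisons (at most 4 at an unadjusted p under 0.05). The called gene was Ppbp (-1.90, adjusted p = 0.0334), with an uncalled -1.79 in Barx1 intestine relative to intestine (adjusted p = 0.0739). In each comparison with intestine 3 of the 6 lay above 0 and 3 below. Itga2b did not pass in any comparison (adjusted p from 0.159 to 0.811). Mesenchymal genes had 0 of 12 called in Barx1 intestine against intestine by limma (7 at an unadjusted p under 0.05), 6 higher in stomach than in intestine and 5 lower in Barx1 intestine than in stomach. Of 6 mesothelial genes 1 was lower in Barx1 intestine than in intestine, namely Podxl (-0.83, adjusted p = 0.0322), a sialomucin gene that endothelium also expresses; 1 was higher and 2 lower in stomach than in intestine, and 1 was higher in Barx1 intestine than in stomach. Of 8 genes of enteric neurons and glia 3 fell in Barx1 intestine relative to intestine, 3 were lower in stomach than in intestine and 2 were lower in Barx1 intestine than in stomach. Ednrb, also counted with the endothelial receptors, was among the 3 in both comparisons with intestine, beside Erbb3 and Sox10.

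Barx1 itself read 8.66 and 8.79 in Barx1 intestine, 9.82 and 9.79 in stomach, and 5.13 and 4.93 in intestine. The Barx1 intestine arrays lay above the intestine arrays, as their label of overexpression gives. They lay below the stomach arrays, and the labels state no order for these groups.

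The 10 genes did not share 1 pattern over the 6 arrays: Pearson r between members ran from -0.815 to 0.965 over 45 pairs, with a median of 0.187, and Tie1, Tek and Cldn5 had a negative r with the mean of the others. Each of 1347 other genes with an SD of 0.3 or more was set against the mean z-score of the 10, which is thus an average over unlike patterns. Clone names and names of predicted genes were left out of the ranking. The 10 most alike of the rest were Creg1, Ppp1r14a, Sting1, Helz2, Dusp6, Thbs4, Zswim6, Tlr4, Vsir and Shisa2. Their Pearson r, the measure of likeness over 6 arrays, was 0.977 to 0.988. The arrays fall into 3 groups of 2 and share 1 normalisation, so these values are a description. Dusp6, a phosphatase induced by ERK signalling, read 10.63 and 10.59 in Barx1 intestine, 10.33 and 10.22 in stomach, and 11.05 and 11.39 in intestine. Ppp1r14a, an inhibitor of myosin phosphatase in smooth muscle, read 8.87 and 8.85 in Barx1 intestine, 8.40 and 8.58 in stomach, and 9.43 and 9.82 in intestine. None of the 10 is a gene of the endothelial lists.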

How the data were processed

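RNA of 6 samples was measured on Affymetrix arrays. The deposited log2 values were summarised by the authors with RMA, per the submitters' processing notes; its version is not given in the sources used here, and the log2 scale was read from the values (2.48 to 14.7). RMA brings the arrays to a common distribution, so shifts of most genes together are removed. Of 22690 probe sets, 64 were controls, 20380 named 1 gene, 691 several and 1555 none in the platform annotation; 20351 matched the reference gene table and 0 symbols changed. The probe set with the highest mean stood for a gene.

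All arrays entered 1 limma (3.58.1, R 4.3.3) fit of 3 group means, with 3 residual and 2.58 prior degrees of freedom and Benjamini-Hochberg adjustment over 12393 genes per comparison; all tests were two-sided with a threshold of 0.05, and every adjusted p is from limma. SE and intervals come from this fit. The script was checked on data with known changes before use. The array number limits the precision, and depth has no counterpart. Replicates are biological per the labels. Each p-value sets a difference against the spread between these samples, moderated by the spread over all genes.

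Members and lists were chosen with earlier results of these data known. The naming rule took the 10 members, a fixed set of vessel genes, and up to 4 further called genes per list and comparison with the smallest p. It also took the 10 genes most like the members, leaving out clone names and names of predicted genes. The text gives a part of these. Icam2, Clec14a, Sox7, Bcl6b, Adm and Vegfb fall outside it and were named after their values were seen. The count of other named calls below leaves them out.

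Alternatives were a filter on dim genes (mean of 6 or more), median centring, repeated quantile normalisation, averaging over probe sets, an intensity trend, array weights, a fit of 2 groups, a replicate block, a threshold of 0.01 and leaving out each array. Crossed replicate numbers were added after seeing the data.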

Additional observations from a re-analysis of the deposited data

How the results depend on the processing

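Of the 30 differences of the 10 genes, 14 kept direction and side of the threshold under all alternatives that could be run, 8 lost a call in at least 1, 2 gained a call and 6 changed sign in at least 1, each of the 6 uncalled throughout. The genes past the test numbered 2 for Barx1 intestine against intestine, 5 for stomach against intestine and 2 for Barx1 intestine against stomach. In that order they were 1, 3 and 1 with the filter on dim genes, under which only Kdr, Esam and Eng were tested, and 1, 3 and 0 at a threshold of 0.01. Barx1 intestine against stomach gave 1 with median centring. A fit of the 2 groups alone gave 1 for Barx1 intestine against intestine and 1 for Barx1 intestine against stomach. Without 1 array the counts ran from 0 to 1, from 1 to 5 and from 0 to 1; a lone array was assumed to vary like the other groups. The median difference was -0.41 and -0.84 with the filter on dim genes for the comparisons with intestine, and without 1 array it ran from -0.34 to -0.18 and from -0.51 to -0.35. Sign changes occurred only without 1 array: Cldn5 ran from -0.16 to 0.20 (Barx1 intestine minus intestine), from -0.13 to 0.22 (stomach minus intestine) and from -0.19 to 0.14 (Barx1 intestine minus stomach), Tek from -0.0398 to 0.1532 (stomach minus intestine), and Pecam1 from -0.0942 to 0.0569 and Eng from -0.0056 to 0.13 (Barx1 intestine minus stomach). A second quantile normalisation added Emcn to stomach against intestine (6), and averaging the probe sets added Eng to Barx1 intestine against intestine (3). In the whole table the calls numbered 493, 2100 and 644. Barx1 intestine against intestine gave 831 with the filter on dim genes, 1037 with the intensity trend, 269 with array weights, 50 with 2 groups, 40 at 0.01 and 50 to 466 without 1 array. Stomach against intestine gave 512 at 0.01 and 281 to 1692 without 1 array, and Barx1 intestine against stomach gave 1147 with the filter, 1189 with the trend, 11 at 0.01 and 0 to 727 without 1 array. The cause of these changes was not tested.

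The labels give replicate numbers without saying that they mark a shared litter or day. Deviations of same-numbered arrays correlated over genes at -0.06 (Barx1 intestine and stomach), 0.20 (Barx1 intestine and intestine) and -0.22 (stomach and intestine). With the replicate number as a block, 2, 5 and 1 of the 10 genes passed, and 267, 1508 and 337 genes of the whole table. Exchanging the stomach numbers, an alternative chosen after seeing the data, gave 2, 6 and 2 of the 10 genes. Of the 86 other named calls, 14 held under all alternatives and 72 were lost in at least 1, with 0 changes of sign. Averaging over probe sets took the call from Podxl (Barx1 intestine against intestine), among others. It did so too for Jam2 and Notch4 (stomach against intestine) and for Ets1 (Barx1 intestine against stomach).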
